A study of Homo sapiens with 4 samples.

Results

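Of the long intergenic transcripts that the array names only by an assembly identifier beginning TCONS_l2_, 265 probes for 251 transcripts were well above background on all 4 arrays, out of 1615 probes for 1559 such transcripts and 50599 non-control probes in all. The members were selected on the detection flag of the scanner software, which had to be set in every spot on every array, so their detection is no finding. It also bounds how low a member can be on any array.

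HCT116 cells are a line from a human colorectal carcinoma. By repeated transwell migration the line was divided into MG cells, which had passed through the membrane, and non-MG cells, which had stayed on top of it. Each was kept for 48 h with vehicle or with 5 µM 5-azacytidine, a nucleoside that inhibits DNA methylation, which gives the groups non-MG vehicle, non-MG 5-azacytidine, MG vehicle and MG 5-azacytidine. Each group is 1 one-colour array made from 400 ng of RNA, so no replicate check and no test between conditions exist. All 4 arrays lay on 1 slide, with the cell types in different slide rows and the treatments in different slide columns, so position and condition cannot be told apart. For the RNA extraction, RNAiso Plus is given in the labels and an RNeasy kit in the study's methods.

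Long intergenic non-coding RNAs lie between protein-coding genes. Many are spliced and polyadenylated like mRNA, are made at low levels and only in some tissues, and remain in the nucleus. A few, such as NEAT1, which builds paraspeckles, and H19, an imprinted growth-related transcript, have known roles, whereas most have none. 5-azacytidine is incorporated into RNA and DNA and traps DNA methyltransferases, and it is known to raise transcripts from methylated promoters. No known function can be given for the TCONS_l2 transcripts, since none of their identifiers on the array matched an entry of the RefSeq table used here. Whether they code for protein was not examined.

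The 75th percentile of intensity, which served to scale each array, lay between 75.2 and 98.7, and the dimmest detected probe between 9.95 and 11.8. No spot was saturated. Of 10 epithelial marker genes, 9 had a probe on all 4 arrays, including CDH1 and EPCAM, whereas VIL1 was on none. Of the marker genes of other cell types reported here, 7 were on no array, and 1 probe each of VWF and COL1A1 was on all 4. In such bulk RNA, fewer cells with a transcript and less of it per cell cannot be told apart.

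TCONS_l2 transcripts were detected less widely than RefSeq mRNA. On all 4 arrays 16.4% of TCONS_l2 probes were well above background, compared with 60.4% of mRNA probes, 28.6% of probes for RefSeq non-coding RNAs and 5.95% of probes for other TCONS transcripts. On no array were 1206 TCONS_l2 probes detected, or 74.7%, and 144 were detected on 1 to 3 arrays. The number detected per array was 340 for non-MG vehicle, 329 for non-MG 5-azacytidine, 325 for MG vehicle and 307 for MG 5-azacytidine, so that both MG arrays had fewer than both non-MG arrays. Over all non-control probes the numbers were 21868, 21700, 21670 and 21370 in the same order.

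**Figure D1:**
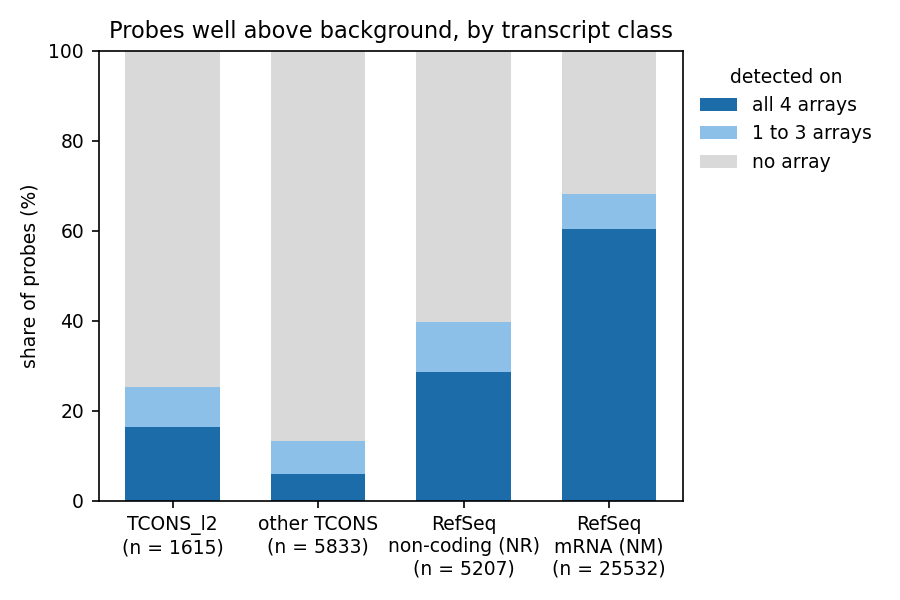
Share of probes (%, stacked bars) well above background on all 4 arrays, on 1 to 3 arrays or on none, for TCONS_l2 transcripts, other TCONS transcripts, RefSeq non-coding RNAs and RefSeq mRNAs. All-array detection was 16.4% for TCONS_l2 probes and 60.4% for mRNA probes.

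At the border of the selection, the members with the smallest margin over the lowest detected signal were TCONS_l2_00012419, with intensities of 23.2, 16.6, 19.5 and 12.5 (non-MG vehicle, non-MG 5-azacytidine, MG vehicle, MG 5-azacytidine, the order used throughout), TCONS_l2_00003176 and TCONS_l2_00021172. Just outside it lay TCONS_l2_00008479, with 20.9, 23.9, 14.1 and 21.8, which lacked the flag on the MG vehicle array. TCONS_l2_00006816 lacked it on the same array, and TCONS_l2_00021481 on the MG 5-azacytidine array.

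The members were dimmer than detected mRNA in the middle of the distribution, but some were among the bright probes. Their mean log2 intensity had a median of 6.06, an intensity of 66.7, and ran from 3.78 to 16.02, whereas the 15413 mRNA probes detected on all arrays had a median of 7.77. Below a log2 intensity of 5 lay 75 members, or 28.3%, compared with 10.2% of mRNA probes, and at 12 or above lay 27 members, or 10.2%, compared with 6.69%. Signals of different probes depend on the probe and say nothing here about relative abundance. They matter for precision, since probes with 10 spots had an SD between them, the spot error, of 0.20 on the log2 scale at intensities of 4 to 5 and 0.05 at 10 to 11. Each member has 1 spot, and the median spot error of a member's log2 ratio was 0.12 in 5-azacytidine over vehicle in MG cells and 0.16 in the other 3 comparisons. It covers spotting and scanning, not cultures or labelling.

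The brightest members differed little between conditions. TCONS_l2_00010291 had intensities of 67231, 59462, 70033 and 69539, and its scaled log2 values ranged over 0.16. TCONS_l2_00009118 has 2 member probes, both bright, with ranges of 0.23 and 0.13. TCONS_l2_00005546, TCONS_l2_00007922, TCONS_l2_00000181, TCONS_l2_00014931 and TCONS_l2_00017196 ranged over 0.13 to 0.35. TCONS_l2_00016171 had the widest range of the 8 brightest, 0.45, and its lowest scaled value was in MG cells with vehicle.

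Over all members the range over the 4 arrays, the highest minus the lowest scaled log2 value, had a median of 0.48 with quartiles of 0.31 and 0.69. In mRNA probes weighted to the members' distribution of signal the median was 0.48 as well, and unweighted it was 0.42. The members therefore varied about as much as mRNA of like signal. Within 1.5-fold over all arrays stayed 168 of the 265 members, beside 10846 of 15413 mRNA probes, not weighted for signal. More than 2-fold was the range of 21 members, beside 976 of these mRNA probes. The smallest range, 0.064, was that of TCONS_l2_00030373, with intensities of 43.0, 35.6, 48.0 and 45.8, which is below its spot error. TCONS_l2_00030126, TCONS_l2_00005906, TCONS_l2_00027379 and the dimmer probe of TCONS_l2_00009118 followed, with 0.089 to 0.13. The largest range, 3.53, was that of TCONS_l2_00019510.

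Past 1.5-fold in at least 1 of the 4 comparisons were 76 members, or 28.7%, beside 24.4% of the 19792 probes detected on all arrays and 28.4% of mRNA probes weighted to the members' signal. In the difference between cell types averaged over treatments the median absolute size was 0.24 in members and 0.24 in mRNA of like signal. For treatment averaged over cell types it was 0.13 and 0.15, and for the difference of the treatment ratios between cell types, divided in the same way, 0.11 and 0.10. The cell type was the largest of these contrasts in 166 members, treatment in 64 and the difference between the treatment ratios in 35. By this measure cell type was the largest source of variation in 62.6% of members, compared with 59.4% of mRNA probes of like signal.

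In the comparison of untreated cells, 31 members were lower in MG cells past 1.5-fold and 8 were higher. The lower members were 11.7% of the 265, beside 8.26% of all probes tested and 8.75% of mRNA of like signal, and the higher members 3.02%, beside 6.09% and 6.92%. With 5-azacytidine, 37 members were lower in MG cells, or 14.0%, beside 7.25% of all probes and 7.24% of mRNA of like signal, and 8 were higher, beside 6.22% and 7.27%. With median scaling the split turned, to 27 higher and 10 lower with vehicle and 29 higher and 10 lower with 5-azacytidine, and the lower members with vehicle were then 3.77% beside 3.81% of all probes, no more than the background, whereas with 5-azacytidine they were 3.77% beside 2.58% of all probes and 2.52% of mRNA of like signal. The higher members remained fewer than the background under it, 10.2% beside 14.2% with vehicle and 10.9% beside 19.9% with 5-azacytidine. Normexp background correction was run with an offset of 50 added to each signal, beside a median member intensity of 66.7. Such an offset makes the ratios of dim probes smaller. With it, 4 members were lower with vehicle, or 1.51% beside 2.15% of all probes and 1.59% of mRNA of like signal. With 5-azacytidine 3 were lower, or 1.13% beside 1.20% of all probes and 0.738% of mRNA of like signal. Neither share was above that over all probes, but the second was above that of mRNA of like signal. The higher ones were then 4 and 5, or 1.51% and 1.89% beside 3.13% and 4.79%. Quantile normalization gave 24 and 34 lower members, or 9.06% and 12.8% beside 7.30% and 7.21% of all probes. With the 75th percentile over probes detected on all arrays 33 and 54 were lower, or 12.5% and 20.4% beside 8.55% and 9.96%. Of the 31 and 37 lower members given first, 16 with vehicle and 18 with 5-azacytidine had mean log2 intensities below 5. Spot error is largest there. Beyond 1.5-fold by more than 2 spot errors were 6 and 7 of the 31 and 37, which was not counted over all probes.

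The shift was small and spread over many members. With vehicle the median log2 ratio of MG over non-MG was -0.11 in the members and -0.0028 in mRNA of like signal, and with 5-azacytidine it was -0.12 and 0.021. In each of these comparisons 167 of the 265 members were below 0, a count that follows the scaling. Over all probes detected on all arrays the medians were -0.0069 with vehicle and 0.019 with 5-azacytidine. The sign of the members' median depends on the scaling, since with the median in place of the 75th percentile all MG over non-MG ratios move up by 0.20 with vehicle and 0.26 with 5-azacytidine and the members' medians become 0.086 and 0.13. The distance from mRNA of like signal, -0.11 with vehicle and -0.14 with 5-azacytidine, does not depend on this constant. Neither distance was tested. Probes for RefSeq non-coding RNAs had medians of -0.12 and -0.15, and other TCONS transcripts of -0.20 and -0.26. The members thus shared their position below mRNA with both of these classes.

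The distance from mRNA was not the same in every range of signal. With vehicle the members lay below mRNA at log2 intensities under 7 and from 10 up, but above it from 7 to 10. Below a log2 intensity of 5 the members' median was -0.19 with vehicle, compared with -0.055 for mRNA, and from 6 to 7 it was -0.22 compared with 0.011. From 7 to 8 it was 0.057 compared with 0.031, from 8 to 10 0.12 compared with 0.054, and at 12 and above -0.077 compared with 0.030. With 5-azacytidine the members lay below mRNA in every range, with -0.27 compared with -0.043 below 5, 0.024 compared with 0.10 from 8 to 10, and -0.13 compared with 0.032 at 12 and above.

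**Figure D2:**
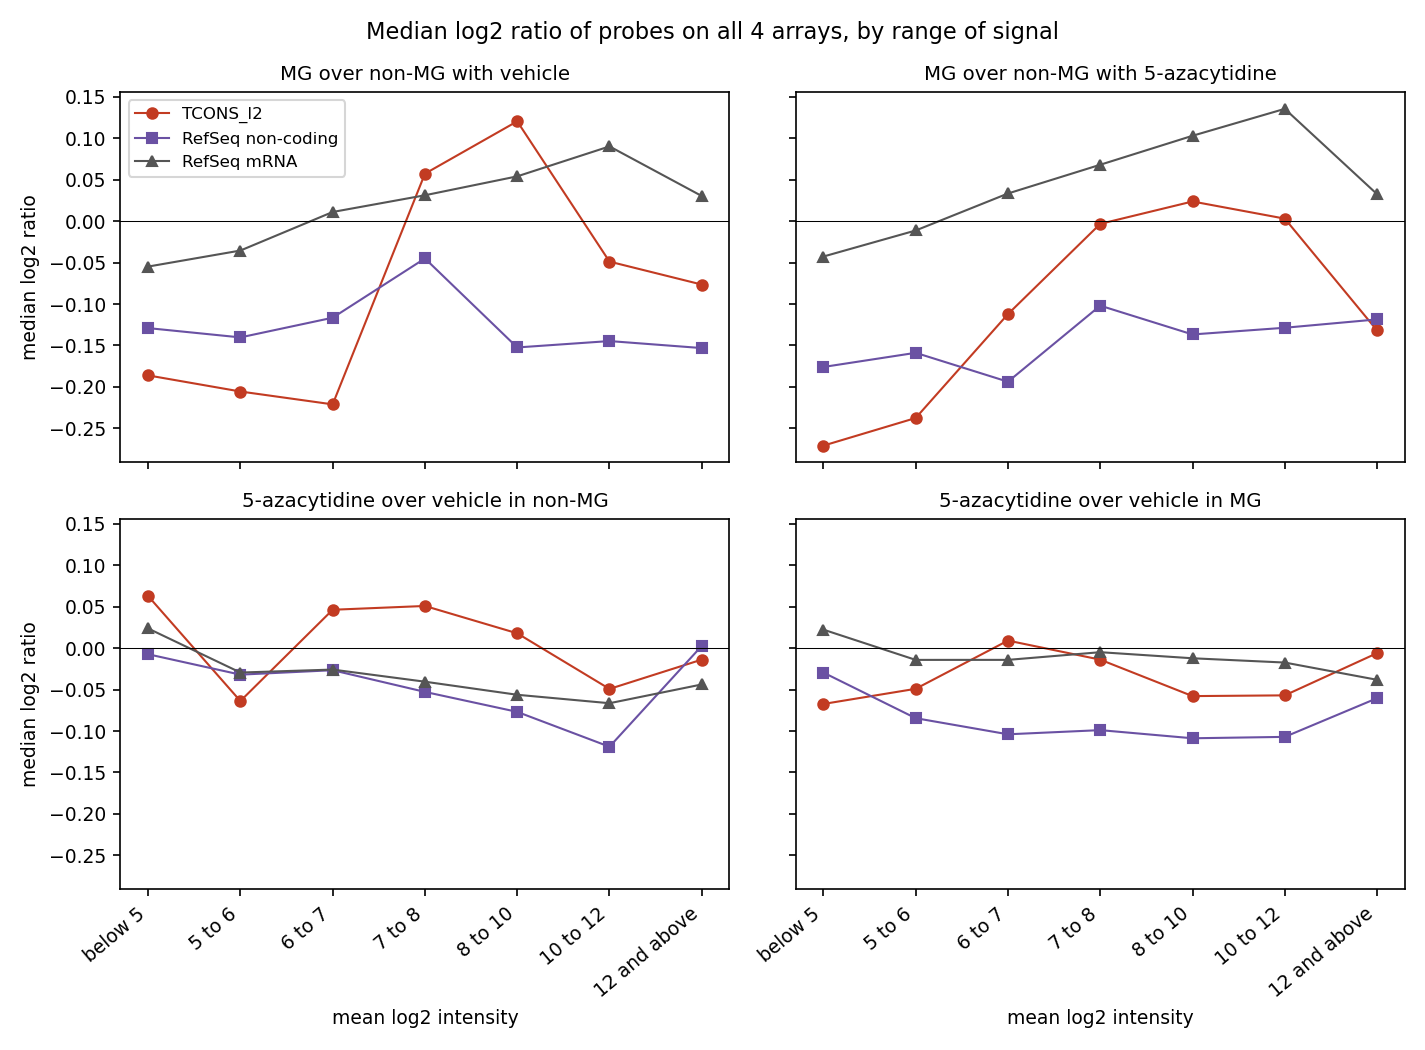
Median log2 ratio (vertical axis) of probes detected on all 4 arrays by range of mean log2 intensity (horizontal axis) for TCONS_l2 transcripts, RefSeq non-coding RNAs and RefSeq mRNAs, with 1 panel per comparison. In MG over non-MG cells the TCONS_l2 medians lay between -0.27 and -0.11 below a log2 intensity of 7 and between -0.13 and 0.12 above it, and the zero line depends on the scaling.

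The comparisons of cell type with vehicle and with 5-azacytidine share no array, so they can be set against each other. Across the 265 members the log2 ratios had a Pearson correlation of 0.61 and a Spearman correlation of 0.61, and 201 members, or 75.8%, had the same sign. Across mRNA probes the Pearson correlation was 0.72 and 78.2% had the same sign. The probes share arrays, scaling and slide position and are not independent, so these are descriptions. In members with mean log2 intensities of 5 or more the Pearson correlation was 0.67, and in dimmer ones 0.48, compared with 0.76 and 0.47 in mRNA.

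Lower in MG cells past 1.5-fold under both treatments were 18 members, or 6.79%, beside 3.72% of all probes and 3.56% of mRNA of like signal. Of these, 4 passed with median scaling (TCONS_l2_00001619, TCONS_l2_00020391, TCONS_l2_00022565 and TCONS_l2_00026611), or 1.51% beside 1.24% of all probes. With normexp 2 passed, TCONS_l2_00001619 and TCONS_l2_00022565, or 0.755% beside 0.717%. Quantile normalization gave 13 members, or 4.91% beside 3.53%. The 75th percentile over probes detected on all arrays gave 21, or 7.92% beside 4.50%. The widest difference was that of TCONS_l2_00022565, with intensities of 194, 95.4, 66.1 and 26.2. Both MG arrays were below both non-MG arrays, and each 5-azacytidine array was below the vehicle array of the same cells. Scaled, it was 3.33-fold lower in MG cells with vehicle (log2 ratio -1.74, spot error 0.11) and 4.67-fold lower with 5-azacytidine (-2.22, spot error 0.22).

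TCONS_l2_00001619 had intensities of 554, 850, 185 and 587. It was lowest in MG cells with vehicle, 3.39-fold below non-MG cells (-1.76, spot error 0.09), and 1.86-fold lower with 5-azacytidine. On the MG array with 5-azacytidine its intensity was close to that of untreated non-MG cells.

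TCONS_l2_00003844 had 68.3, 40.8, 47.2 and 17.2, a 1.64-fold lower level in MG cells with vehicle and a 3.05-fold lower one with 5-azacytidine. TCONS_l2_00008962 had 45.9, 26.8, 32.5 and 14.9 and followed the same order of arrays. For both, the MG 5-azacytidine array was lowest and the non-MG vehicle array highest.

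TCONS_l2_00018071 had 42.7, 27.6, 22.6 and 21.4 and TCONS_l2_00003008 33.2, 23.5, 15.8 and 17.6. On the MG arrays both lay below the non-MG arrays, by log2 ratios of -1.10 and -1.25 with vehicle and of -0.73 and -0.78 with 5-azacytidine. The spot errors of these ratios were 0.24 to 0.34, since both probes are dim.

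Higher in MG cells under both treatments was 1 member, TCONS_l2_00026014, beside 2.83% of all probes. With median scaling 11 members passed in this direction, or 4.15% beside 9.76% of all probes, and with quantile normalization or the 75th percentile over probes detected on all arrays 0 did, beside 2.69% and 1.96%. Its intensities were 551, 494, 1068 and 995, so both MG arrays were above both non-MG arrays, by 1.71-fold with vehicle and 1.57-fold with 5-azacytidine (spot errors 0.08 and 0.09). TCONS_l2_00026117 had 89.9, 92.6, 153 and 206, was 1.73-fold higher in MG cells with 5-azacytidine and fell just short of 1.5-fold with vehicle. The 2 largest ratios above 0 with vehicle belonged to the dim TCONS_l2_00024508, with 13.4, 18.1, 35.2 and 21.9, and TCONS_l2_00004725, with 16.2, 18.7, 34.5 and 19.9. In both, the MG vehicle array alone stood out, and with 5-azacytidine their MG over non-MG log2 ratios were -0.09 and -0.27. Past 1.5-fold in opposite directions under the 2 treatments was 1 member, TCONS_l2_00007785, beside 0.0859% of all probes.

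**Figure D3:**
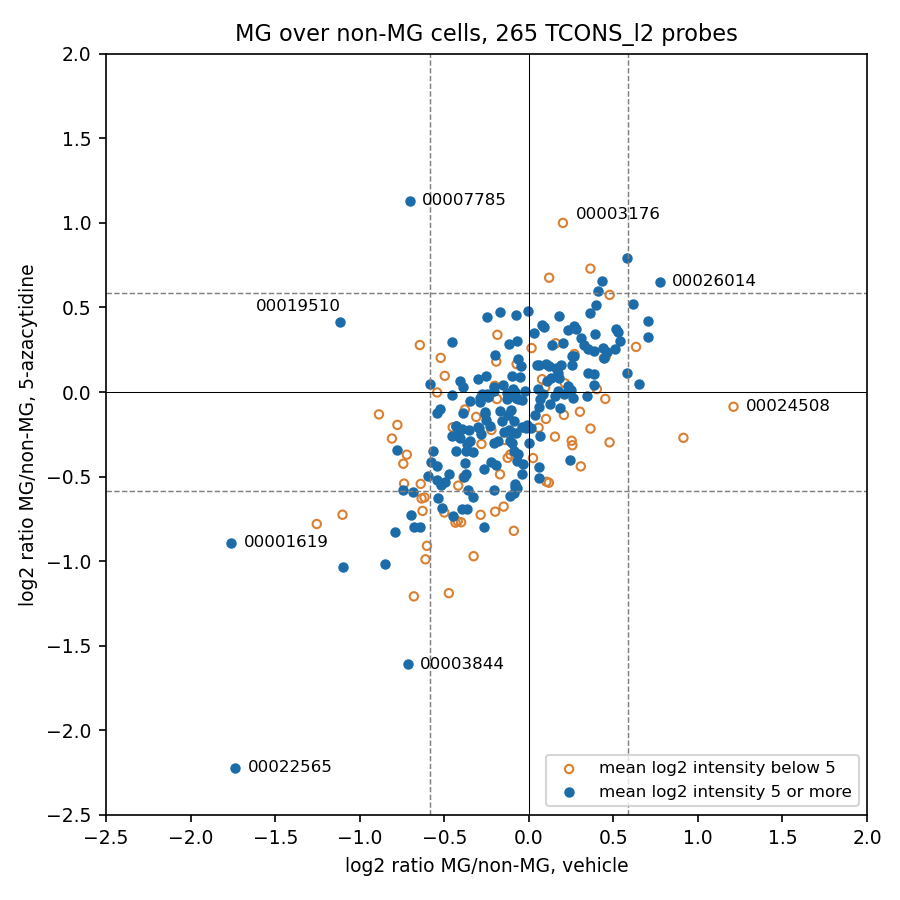
Log2 ratio of MG to non-MG cells, treated with vehicle on the horizontal and with 5-azacytidine on the vertical axis, for the 265 TCONS_l2 probes, with open circles for mean log2 intensities below 5, dashed lines at 1.5-fold and labels that give the end of the transcript identifier. In the lower left field lie 18 members and in the upper right field 1, TCONS_l2_00026014.

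With 5-azacytidine few members were past 1.5-fold of vehicle. In non-MG cells 7 members were higher past 1.5-fold, or 2.64%, beside 1.94% of all probes and 3.08% of mRNA of like signal, and 5 were lower, or 1.89%, beside 1.88% and 2.59%. In MG cells 9 were higher, or 3.40%, beside 3.08% and 4.53%. Lower in MG cells with the drug were 14, or 5.28%, beside 2.18% and 2.32%, and 9 of these 14 had mean log2 intensities below 5. The split in non-MG cells followed the scaling, with 3 higher and 10 lower members under median scaling, or 1.13% and 3.77% beside 1.26% and 3.71% of all probes. Where the 75th percentile was taken over probes detected on all arrays, there were 11 higher and 2 lower, or 4.15% and 0.755% beside 2.91% and 1.16%. With normexp, 2 were higher and 1 lower in non-MG cells, or 0.755% and 0.377% beside 0.339% and 0.596% of all probes. In MG cells it left 3 higher and 1 lower, or 1.13% and 0.377% beside 0.915% and 0.344%. Median scaling and quantile normalization each gave 16 members lower with the drug in MG cells, or 6.04%, beside 2.70% and 2.34% of all probes. The 75th percentile over probes detected on all arrays gave 14, or 5.28% beside 2.15%. Past 1.5-fold by more than 2 spot errors were 2 higher and 1 lower member in non-MG cells, and 5 higher and 2 lower members in MG cells. This too was not counted over all probes.

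Over the members as a group the treatment ratios centred near 0. Their median log2 ratio of 5-azacytidine over vehicle was 0.0081 in non-MG and -0.043 in MG cells, with 133 and 121 members above 0, compared with -0.022 and -0.0055 in mRNA of like signal. Median scaling moves all these ratios by -0.098 in non-MG and -0.037 in MG cells, which turns the sign of the first median.

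Higher with the drug in both cell types were 3 members, or 1.13%, beside 0.753% of all probes and 1.14% of mRNA of like signal. TCONS_l2_00019510 and TCONS_l2_00001619 also passed with median scaling, quantile normalization and normexp, and TCONS_l2_00003176 did so in none of these. These 2 are 0.755% of members, beside 0.621%, 0.733% and 0.258% of all probes in the same order. With the 75th percentile over probes detected on all arrays all 3 passed, or 1.13% beside 0.879%. TCONS_l2_00019510 had the largest response of all members, with intensities of 28.3, 97.8, 14.8 and 167. Both 5-azacytidine arrays were above both vehicle arrays, with a 4.0-fold higher level in non-MG cells (log2 ratio 2.0, spot error 0.22) and an 11.6-fold higher level in MG cells (3.53, spot error 0.33). With vehicle it was 2.17-fold lower in MG than in non-MG cells, and with the drug 1.33-fold higher.

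TCONS_l2_00001619, given above as lower in MG cells, was 1.78-fold higher with the drug in non-MG cells and 3.24-fold higher in MG cells (spot errors 0.08 and 0.09). The third, TCONS_l2_00003176, had 10.9, 14.2, 14.2 and 36.3 and was among the members nearest the detection limit. Its log2 ratios were 0.59 in non-MG and 1.39 in MG cells, with spot errors of 0.45 and 0.34, so that in non-MG cells the ratio was little above its spot error.

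Lower with the drug in both cell types were 2 members, beside 0.323% of all probes and 0.325% of mRNA of like signal. With median scaling there were 4, with TCONS_l2_00003844 and TCONS_l2_00008962 in addition, or 1.51% beside 0.546% of all probes, and with normexp 0, beside 0.0202%. Quantile normalization kept TCONS_l2_00018854 and TCONS_l2_00022565, or 0.755% beside 0.313%. With the 75th percentile over probes detected on all arrays only TCONS_l2_00022565 passed, or 0.377% beside 0.197%. TCONS_l2_00022565 was 1.76-fold lower in non-MG and 2.47-fold lower in MG cells. TCONS_l2_00018854 had 59.5, 33.7, 46.5 and 28.0 and was 1.52-fold and 1.62-fold lower, with both drug arrays below both vehicle arrays. TCONS_l2_00003844 was 2.69-fold lower with the drug in MG cells and 1.45-fold lower in non-MG cells, and TCONS_l2_00008962 was 2.13-fold and 1.48-fold lower.

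Among the members with large ratios in 1 cell type only, TCONS_l2_00007785 had intensities of 64.1, 46.7, 44.6 and 131. The MG 5-azacytidine array stood above the other 3, by 3.01-fold over MG vehicle (log2 ratio 1.59, spot error 0.15), whereas in non-MG cells the ratio was -0.25. TCONS_l2_00017652 was 1.67-fold higher with the drug in non-MG cells, TCONS_l2_00030477 1.59-fold lower and TCONS_l2_00025774 1.57-fold lower, and in MG cells their log2 ratios were 0.08, -0.42 and -0.23. Past 1.5-fold in opposite directions in the 2 cell types was 1 member, TCONS_l2_00024508, beside 0.0606% of all probes.

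Across members the treatment ratios in non-MG and MG cells, which share no array, had a Pearson correlation of 0.50 and a Spearman correlation of 0.31, compared with 0.45 and 0.36 across mRNA probes. TCONS_l2_00019510 carried part of it, since without it the Pearson correlation was 0.36. The same sign in both cell types was found for 161 members, or 60.8%, and for 63.4% of mRNA probes.

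**Figure D4:**
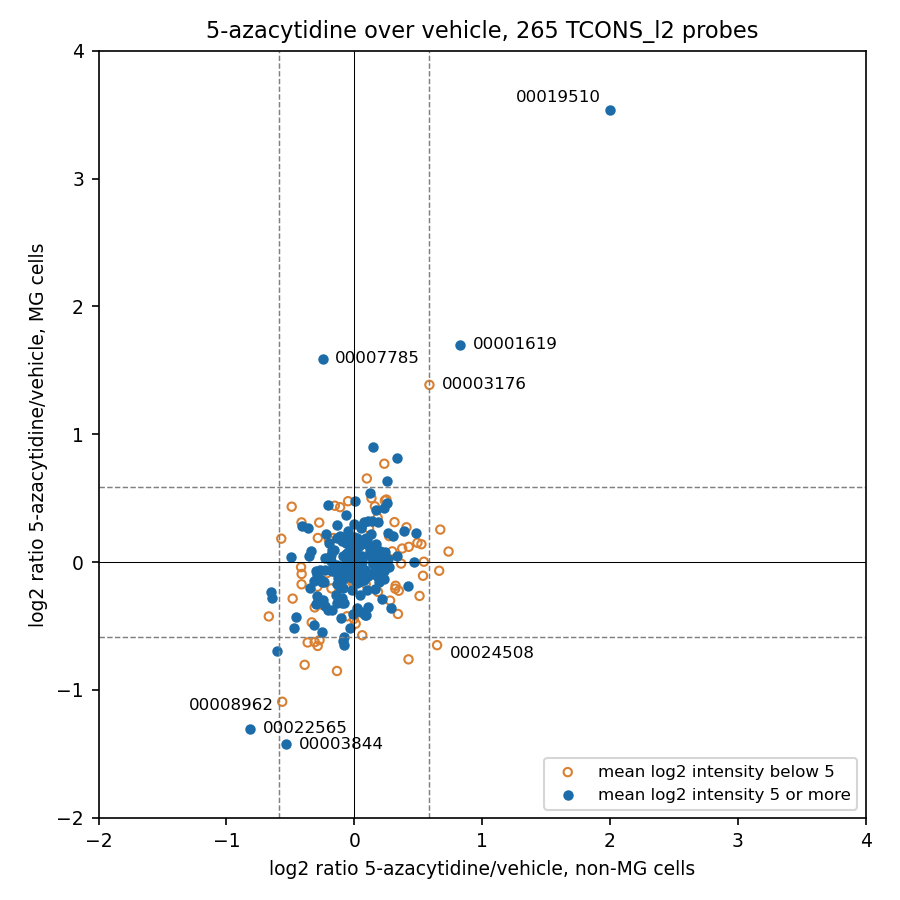
Log2 ratio of 5-azacytidine over vehicle in non-MG cells (horizontal axis) and in MG cells (vertical axis) for the 265 TCONS_l2 probes, with open circles for mean log2 intensities below 5, dashed lines at 1.5-fold and labels that give the end of the transcript identifier. TCONS_l2_00019510, at 2.0 and 3.53, lies far from the other members.

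**Figure D5:**
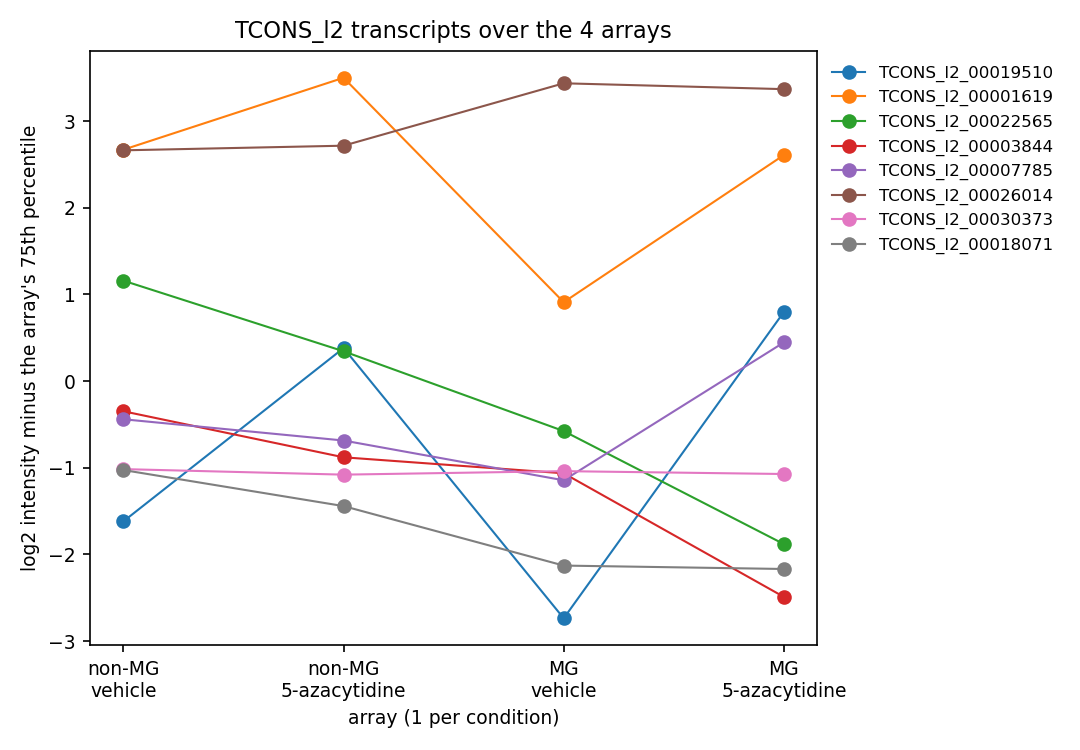
Log2 intensity minus the 75th percentile of the array (vertical axis) on the 4 arrays (horizontal axis, 1 point per condition, no error bars because there is 1 array each) for 8 transcripts with the patterns described. TCONS_l2_00030373 stays within 0.064, whereas TCONS_l2_00019510 is high on both 5-azacytidine arrays and TCONS_l2_00022565 is lowest in MG cells with the drug.

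Several probes for 1 transcript give a check within the array. There were 17 transcripts with a member among several probes, and 12 of them had at least 2 member probes, 26 in all. Between member probes of 1 transcript the log2 ratios differed by a median of 0.28 and 0.29 in the cell type comparisons and 0.23 and 0.22 in the treatment comparisons, more than the median spot errors of the ratios. The sign was the same in 9 of 12 transcripts in each cell type comparison and in 8 of 12 in each treatment comparison.

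For TCONS_l2_00020391 both member probes were lower in MG cells, with log2 ratios of -1.10 and -0.45 with vehicle and -1.04 and -0.73 with 5-azacytidine, the only transcript whose member probes all passed 1.5-fold in a comparison, that with 5-azacytidine. For TCONS_l2_00026611 the probes gave -0.85 and -0.54 with vehicle and -1.02 and -0.44 with the drug, and a further probe was well above background on no array. In 6 of the 17 transcripts such an undetected probe stood beside a member. Each member named above for its difference between conditions has 1 probe, apart from these 2 transcripts.

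As named transcripts for comparison, not all of them long intergenic RNAs, 35 non-coding RNAs with known roles were examined, and 33 had a probe. Of their 97 probes 77 were detected on all 4 arrays, for 30 genes. In MG over non-MG cells 9 of the 77 were lower past 1.5-fold with vehicle and 13 with 5-azacytidine, and 0 were higher in either, beside 8.26% and 7.25% lower and 6.09% and 6.22% higher over all probes. Most of the lower ones are repeated probes of NEAT1 and LINC-PINT and are not independent. With the drug 3 were higher and 1 lower in non-MG cells, and 4 higher and 0 lower in MG cells, beside 1.94% and 1.88% of all probes in non-MG and 3.08% and 2.18% in MG cells.

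NEAT1 was lower in MG cells on all 4 of its probes with vehicle, by log2 ratios of -0.73 to -0.99, and past 1.5-fold on 3 of them with 5-azacytidine. Its brightest probe had intensities of 2585, 2886, 1770 and 1779. LINC-PINT, which is induced by p53, had 9 detected probes, of which 3 were past 1.5-fold lower in MG cells with vehicle and 7 with the drug. SNHG5, a host gene of small nucleolar RNAs, was lower past 1.5-fold with vehicle on 1 of 18 probes. In MG cells this probe was higher with the drug, by a log2 ratio of 0.60. The dimmer of the 2 detected probes of DLEU1 was lower in MG cells with vehicle, by -0.66 with a spot error of 0.38. Its brighter probe had MG over non-MG log2 ratios of 0.22 with vehicle and 0.22 with 5-azacytidine. RMRP, the RNA of a mitochondrial RNA-processing ribonuclease, was lower in MG than in non-MG cells under 5-azacytidine, by a log2 ratio of -0.71. Its log2 ratios of 5-azacytidine over vehicle were -0.20 in non-MG and -0.43 in MG cells.

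H19 gave the largest drug response of the list. Its 2 probes had 21.7, 249, 31.1 and 154, and 24.4, 489, 35.8 and 304, so that both drug arrays were above both vehicle arrays. The log2 ratios were 3.73 and 4.54 in non-MG cells and 2.34 and 3.12 in MG cells. A dim probe of MEG3, an imprinted maternally expressed transcript, had log2 ratios of 1.74 and 1.73, whereas another, brighter probe of it had 0.05 and 0.06, and 3 more were not detected. MALAT1, a nuclear speckle RNA, was past 1.5-fold on 1 of 8 probes, lower with the drug in non-MG cells.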

How the data were processed

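RNA of 4 conditions was measured on 1 Agilent one-colour array each. Scanner files of Agilent Feature Extraction 11.5.1.1 were deposited by the authors, in which each spot has a linear background-corrected intensity that is not normalized between arrays, and a table of log2 values for 24189 probes, centred by probe, whose ratios equal those of the log2 intensity up to a constant. The methods name GeneSpring and a filter on the lowest 20th percentile. Control spots and outlier spots were left out (5 of 50599 probes), spots of a probe were averaged, and log2 intensity was reduced by the array's 75th percentile over all non-control probes. Counts past 1.5-fold were read against probes detected on all arrays, and mRNA values were weighted to the members' distribution over 7 ranges of signal. No test was made, with 1 array per group. Spot error combines the median SD between spots at both intensities. The counting was run on simulated data with spot error alone and planted changes well past 1.5-fold. That checks the calculation only, since variation between cultures or labelling was not simulated. The members, the gene lists and the rule for naming transcripts were chosen with earlier results of these data known. Named were the 8 brightest members, the 3 largest differences each way per comparison, those past 1.5-fold in both comparisons of a pair (at most 8), the 5 smallest ranges, 3 transcripts on each side of the detection limit, and transcripts with several member probes where described. Probe sequences, loci and coordinates were not used here. A marker gene of other cell types is not reported here. Python 3.11.15, pandas 2.3.3, numpy 2.4.6, matplotlib 3.10.9, R 4.3.3 and limma 3.58.1 were used.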

Additional observations from a re-analysis of the deposited data

Results flagged for a closer look

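The difference between the cell types ran in opposite directions under the 2 treatments for TCONS_l2_00007785, with MG over non-MG log2 ratios of -0.70 with vehicle and 1.13 with 5-azacytidine. The response to 5-azacytidine ran in opposite directions in the 2 cell types for TCONS_l2_00024508, with log2 ratios of 0.65 in non-MG and -0.65 in MG cells. With 1 array per condition neither difference was tested, and the second rests on intensities between 13.4 and 35.2.

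Among TCONS_l2 transcripts outside the 265 members, 6 probes were well above background on both 5-azacytidine arrays and on neither vehicle array, and 6 showed the reverse, which is 0.372% of TCONS_l2 probes each, beside 0.423% and 0.401% of all probes. TCONS_l2_00030633 had intensities of 2.53, 206, 2.68 and 392 (non-MG vehicle, non-MG 5-azacytidine, MG vehicle, MG 5-azacytidine), so it was at least 23.8-fold higher with the drug in non-MG and at least 35.0-fold higher in MG cells, counted against the lowest detected signal of the vehicle arrays. TCONS_l2_00017628 had 6.86, 38.1, 12.8 and 71.1 and was at least 4.39-fold and 5.70-fold higher. The other 4, TCONS_l2_00002856, TCONS_l2_00004033, TCONS_l2_00020946 and TCONS_l2_00007060, had drug-array intensities between 10.8 and 28.9. Of the same class, 16 probes, or 0.991%, were detected on both non-MG arrays and neither MG array, beside 0.719% of all probes, and 6, or 0.372%, on both MG arrays and neither non-MG array, beside 0.352%.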

How the results depend on the processing

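With 1 array per condition, nothing here measures biological spread, and members with mean log2 intensities below 5 make up 16 of 31 and 18 of 37 of those lower in MG cells. Median scaling gave 27 higher and 10 lower members for the cell types with vehicle (median 0.086), 29 and 10 with 5-azacytidine (median 0.13), and 3 and 10 for the drug in non-MG cells, since it moves every ratio by a constant. The 75th percentile over probes detected on all arrays gave 5 higher members in MG cells with 5-azacytidine, and 11 higher and 2 lower for the drug in non-MG cells.

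Normexp gave 4 and 4, 5 and 3, 2 and 1, and 3 and 1 higher and lower members for the cell types with vehicle and with 5-azacytidine and for the drug in non-MG and in MG cells, and median ranges of 0.29 in members and 0.29 in mRNA of like signal. In the same order, a 2-fold threshold gave 1 and 6, 2 and 6, 1 and 0, and 4 and 3. Probes detected on at least 1 array, with signals raised to the detection limit, gave 23 and 55, 19 and 59, 20 and 11, and 26 and 30 among 409 probes. A 1.4-fold threshold gave 14 higher members with vehicle and 56 lower ones with 5-azacytidine in MG cells, and 12 higher and 10 lower for the drug in non-MG cells. Among the 190 members with mean log2 intensities of 5 or more, 5 were higher and 15 lower in MG cells with vehicle, 5 higher and 19 lower with 5-azacytidine, 2 higher with the drug in non-MG cells and 5 lower with it in MG cells. Under the 2-fold and 1.4-fold thresholds, detection on at least 1 array and intensities of 5 or more, shares over all probes were not counted. No excess over the background can be read from these counts.

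The distance of the members' median from mRNA of like signal lay between -0.11 and -0.076 for the cell types with vehicle and between -0.15 and -0.073 with 5-azacytidine over the alternatives that were run. Quantile normalization, the authors' values, outlier spots kept and 1 value per transcript, the last chosen after seeing the data, left the counts of each comparison within 1.5 times, but quantile normalization took the count of members higher in MG cells under both treatments from 1 to 0. One value per locus was not run, because the files used here name no locus. No paired analysis was possible because each condition has 1 array.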
